A study of Homo sapiens with 6 samples.

Results

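A set of 10 genes, named here HIF-2 target genes, was examined in 786-O cells among the 20030 genes of the deposited table. Which HIF subunit acts on each gene in these cells was not tested. The genes were found by gene symbol, as known targets of the hypoxia-inducible factors (HIFs) in clear cell renal cell carcinoma, by a rule that used no measured value. Earlier results of these data were known when the genes were chosen. All 10 were in the table: CA9, CA12, SLC2A1, VEGFA, ADM, CCND1, BHLHE40, POU5F1, NDRG1 and ANKRD37. The RNA of 786-O cells, an established line from a human clear cell renal cell carcinoma, was sequenced in 6 libraries at passages 16 to 18. The 3 vector libraries came from cells with a lentiviral scrambled shRNA and the 3 shYB1 libraries from cells with an shRNA against YB1, both selected with puromycin. Although the design text of the series speaks of several independent shRNAs, the labels give a single shYB1 group, and nothing in the labels says whether the libraries of a group came from separate cultures or infections, so the p-values measure only the spread between these libraries.

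HIFs are pairs of an oxygen-regulated alpha subunit and the stable subunit ARNT. With oxygen present, prolyl hydroxylases mark the alpha subunit, and the VHL ubiquitin ligase sends it for degradation. Clear cell carcinomas usually lose VHL, so that HIF targets stay on without hypoxia. The 786-O line lacks functional VHL and makes the HIF-2 alpha protein (gene EPAS1) but no functional HIF-1 alpha protein, and is widely used as a HIF-2 model. YB1, the product of YBX1, is a cold-shock domain protein that binds RNA and can bind the Y-box of promoters. Both groups carry the VHL defect, so the comparison asks how the targets differed with less YB1 in cells in which the HIF pathway was already active.

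Promoter sequence is shown because HIFs bind a short core, ACGTG or GCGTG, whereas the Y-box core is CCAAT. RefSeq promoter entries (GRCh38.p14, from 250 bases before to 50 bases after the annotated start) matched 6 of the 10 genes. The stretches before the start that hold a match are given 5′ to 3′ on the strand of the gene, with capitals for either core on either strand. CACGT and CACGC are the hypoxia cores read on the opposite strand, and CACGTG holds the ACGTG core on both strands.
CA9 (chr9:35673884-35673927, plus strand): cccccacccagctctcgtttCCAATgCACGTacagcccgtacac
CA12 (chr15:63382056-63382096, minus strand): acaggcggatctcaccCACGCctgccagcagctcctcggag
SLC2A1 (chr1:42958891-42958935, minus strand): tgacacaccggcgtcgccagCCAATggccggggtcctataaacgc
ADM (chr11:10304952-10304996, plus strand): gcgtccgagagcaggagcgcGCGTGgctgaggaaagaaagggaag
BHLHE40 (chr3:4979187-4979312, plus strand): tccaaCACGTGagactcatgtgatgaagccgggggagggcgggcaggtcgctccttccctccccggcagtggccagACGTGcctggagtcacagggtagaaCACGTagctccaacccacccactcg
ANKRD37 (chr4:185396601-185396722, plus strand): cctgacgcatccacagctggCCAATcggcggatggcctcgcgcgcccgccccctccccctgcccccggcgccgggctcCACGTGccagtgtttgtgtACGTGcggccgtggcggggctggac

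Each of the 6 promoter windows held a hypoxia core, against 48.45% of the 35116 RefSeq windows searched. BHLHE40 and ANKRD37 held the most matches, all before the start, and SLC2A1 held its single hypoxia core 26 bases after the start. A CCAAT core was found in 3 of the 6, CA9, SLC2A1 and ANKRD37, against 34.61% of all windows. In CA9 the CCAAT core began 24 bases and the hypoxia core 18 bases before the start, with a single base between them. Whether the genes with a CCAAT core share a direction cannot be read from the expression data below. SLC2A1 rose, CA9 did not pass the test and ANKRD37 was too low to test. A match describes these letters only and was not tested as a binding site.

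**Figure D1:**
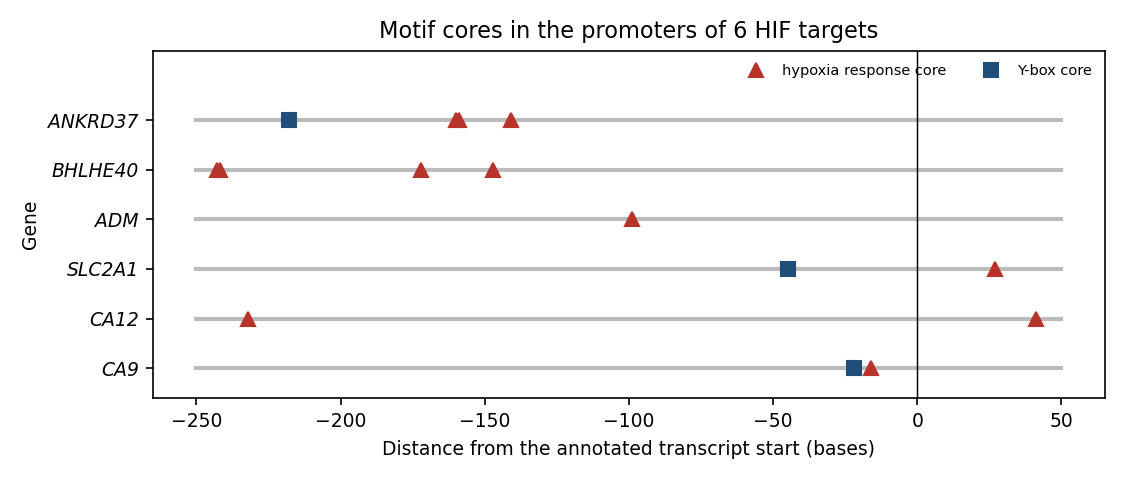
Position of the hypoxia response core (triangles) and the Y-box core (squares) in the promoters of 6 HIF target genes, in bases from the annotated transcript start (vertical line), with grey bars for the window searched. Every gene has at least 1 triangle, and squares are seen in 3 genes, CA9, SLC2A1 and ANKRD37.

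The deposited values were FPKM, fragments scaled to transcript length and to the size of the library, so levels can be compared between genes. Library totals over the listed genes were 282736 to 295887 FPKM. The files hold no fragment counts, and the relative depth read from the spacing of the lowest values was 0.980 to 1.10 times that of shYB1 replicate 1. YBX1 itself was 372 ± 5.70 FPKM in vector and 169 ± 4.04 FPKM in shYB1 libraries (SD, n = 3 each), with no overlap between the groups. Among 10 markers of renal tubule and clear cell carcinoma, 8 reached a mean of 1 FPKM, PAX8 with 77.1 FPKM and VIM with 1400 FPKM in vector cells among them, while LRP2 was listed at 0 throughout. By the limma test described below, CDH6, NNMT and CDH16 were lower in shYB1 cells, and PAX2 was higher but lost that call after size-factor scaling. The part of these markers in the results below was not tested. The 5 endothelial markers summed to at most 0.475 FPKM and the 5 fibroblast and muscle markers to at most 0.673 FPKM in any library. Of 5 blood and immune markers, CD68, which epithelial cells can also express, made up nearly all of a sum of 24.7 to 25.4 FPKM with vector and 22.1 to 22.6 FPKM with shYB1, while CD3E and HBB were listed at 0. In bulk libraries such as these, fewer cells with a transcript and less of it per cell cannot be told apart.

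HIF targets differed between shYB1 and vector cells in both directions and by small amounts. SLC2A1, POU5F1, CCND1 and NDRG1 rose by 8.32% to 16.8%, and CA12, ADM and VEGFA fell by 6.96% to 11.6%. CA9 and BHLHE40 did not pass the test, and ANKRD37 was too low to test. Of the 10 genes, 9 averaged 1 FPKM or more over the 6 libraries and entered the limma test on log2(FPKM + 0.1), in which a gene was called at a Benjamini-Hochberg adjusted p under 0.05 over 10439 genes. There were 7 called genes among the 9, 4 higher and 3 lower, against 25.7% of all genes tested (18.7% higher and 6.93% lower). After size-factor scaling 2 were higher and 5 lower, where 1171 and 1273 of all 10439 genes were. The calls of POU5F1 and NDRG1 were then lost. With 1 library left out 3 to 7 HIF targets were called (3 without shYB1 replicate 3 and 4 without shYB1 replicate 2 or vector replicate 2). Over all genes, 1861 to 2509 were called in these fits, against 2679 with all 6 libraries. Called genes were more frequent at high expression, at 40.8% of the genes that averaged 100 FPKM or more, where 6 of 7 HIF targets were called. The shYB1 and vector values did not overlap in 8 of the 9, against 42.6% of all genes tested. That share covers genes of all levels and was not computed for highly expressed genes alone. No HIF target passed the criteria of the study's methods, a fold change of 2 with an unadjusted p under 0.05, which 0.22% of all genes tested did. The median log2 fold change was −0.034 over the 9 genes and 0.055 over all genes tested, and among genes that averaged 100 FPKM or more it was −0.034 over 7 HIF targets and −0.016 over all.

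**Figure D2:**
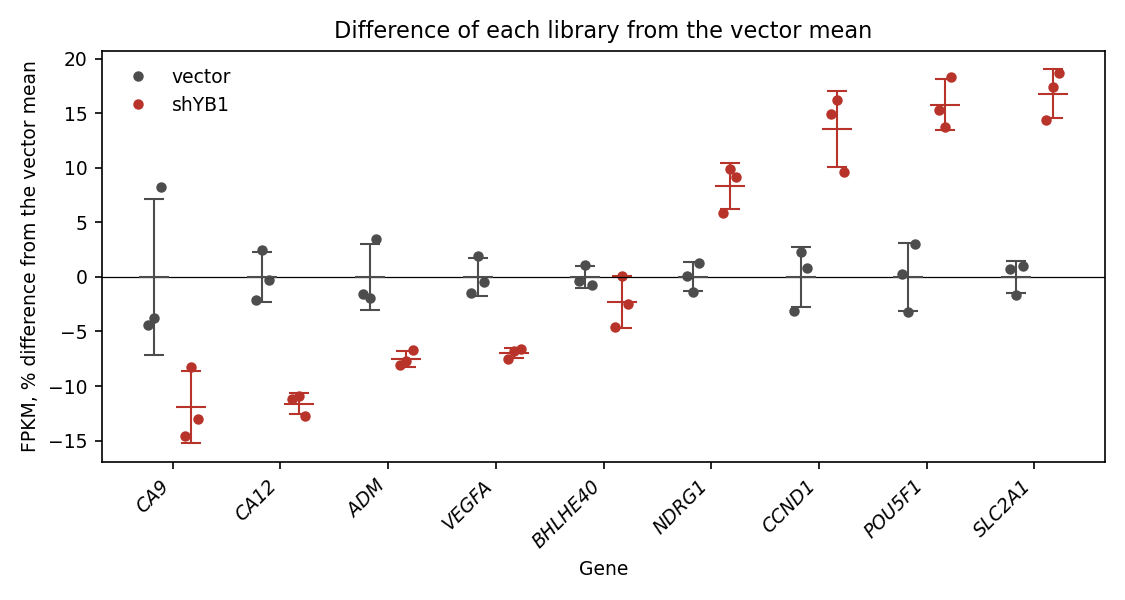
FPKM of the 9 tested HIF targets as percent difference from the vector mean, 1 point per library, with the mean (horizontal mark) and SD (error bar) of 3 vector (grey) and 3 shYB1 (red) libraries. The groups are separate in 8 genes and overlap in BHLHE40, and the shYB1 means run from −11.9% in CA9 to 16.8% in SLC2A1.

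Both carbonic anhydrases of the set were lower in every shYB1 library, and CA12 passed the test. CA9 is the classical marker of the HIF-driven state in clear cell carcinoma. CA9 and CA12 encode membrane enzymes that turn carbon dioxide into bicarbonate and protons at the outer cell surface. CA12 was 118, 124 and 120 FPKM in the vector libraries, replicates 1 to 3 in order here and below, and 107, 107 and 105 FPKM in the shYB1 libraries. All shYB1 values were below all vector values, and the log2 fold change was −0.18 (SE 0.031, limma adjusted p = 0.00266), a fall of 11.6% in mean FPKM. For CA9 the libraries gave 7.57, 7.62 and 8.57 FPKM with vector and 6.77, 7.27 and 6.89 FPKM with shYB1. These groups did not overlap either, and the log2 fold change of −0.18 was that of CA12 to 2 decimals, but the larger SE of 0.062 left a limma adjusted p of 0.0577. CA9 passed the threshold in 3 of 14 alternatives, after size-factor scaling of the libraries (limma adjusted p = 0.0180), after rescaling to a common total (0.0374) and with a filter at 5 FPKM (0.0432), and its highest value was 0.174. CA12 was 15.6, 16.2 and 14.03 times as abundant as CA9 per unit length in vector libraries, and 15.8, 14.8 and 15.3 times in shYB1 libraries. The ratios of the groups overlapped, with means of 15.3 ± 1.13 and 15.3 ± 0.518 (SD, n = 3 each).

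On GRCh38, the CA9 gene spans 35673856 to 35681159 of chromosome 9 (plus strand), and 38.5% of its exon bases overlap exons of ARHGEF39 on the opposite strand. Whether the counting used strand is not given in the sources used here, so reads of the pair may be mixed. ARHGEF39 was 2.72 ± 0.182 FPKM in vector and 2.95 ± 0.210 FPKM in shYB1 libraries (SD, n = 3 each), with overlapping groups. CA12 lies on chromosome 15 from 63321378 to 63382161 on the minus strand, with no overlapping exon of another gene.

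SLC2A1 encodes the glucose transporter GLUT1, which carries glucose into tumor cells. It was 297, 290 and 298 FPKM with vector and 338, 347 and 350 FPKM with shYB1. Every shYB1 library was higher than every vector library. The log2 fold change was 0.22 (SE 0.030, limma adjusted p = 0.000639), a rise of 16.8% in mean FPKM and the largest among the called HIF targets. The gene lies on chromosome 1 from 42925375 to 42959176 on the minus strand. Only 1.64% of the 50-base words of its transcripts also occur in other genes.

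Both secreted factors of the set were lower with shYB1. VEGFA encodes vascular endothelial growth factor, the main angiogenic signal of clear cell carcinoma, and lies on chromosome 6 from 43770184 to 43786487. VEGFA values were 332, 344 and 336 FPKM with vector and 312, 315 and 315 FPKM with shYB1. The shYB1 values were close to each other and all below the vector values, and the log2 fold change was −0.10 (SE 0.029, limma adjusted p = 0.0252). ADM encodes adrenomedullin, a peptide that widens vessels, and lies on chromosome 11 from 10304680 to 10307397. The vector libraries had 327, 326 and 344 FPKM of ADM and the shYB1 libraries 306, 307 and 310 FPKM. Again the groups were separate, and vector replicate 3 was the highest library. The log2 fold change of ADM was −0.11 (SE 0.032, limma adjusted p = 0.0270).
The calls of both were lost in several fits with 1 library left out. Without 1 of the shYB1 libraries, 1861 to 2153 genes were called over all, against 2679 with all 6 libraries. With any of the shYB1 libraries left out, the adjusted p of VEGFA was 0.0627 to 0.0857 and that of ADM 0.0573 to 0.0900 from limma, and both also lost the call with a variance prior without trend (0.1003 and 0.0996). VEGFA lost it without vector replicate 2 as well (0.0799), and ADM without vector replicate 1 (0.0507), with the same direction in each case.

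CCND1 encodes cyclin D1, which drives entry into the cell cycle and is a HIF-2 target in VHL-deficient renal cells. Its values were 206, 217 and 214 FPKM with the vector and 244, 247 and 233 FPKM with the shRNA. All shYB1 libraries were higher. The log2 fold change was 0.18 (SE 0.035, limma adjusted p = 0.00427), a rise of 13.6% in mean FPKM. CCND1 lies on chromosome 11 from 69641087 to 69654474, where 10.3% of its exon bases overlap LTO1 (ORAOV1 in the table) on the opposite strand. ORAOV1 was itself higher with shYB1, at 2.57 ± 0.146 FPKM in vector and 3.26 ± 0.190 FPKM in shYB1 libraries (SD, n = 3 each), and its part in the difference of CCND1 was not tested.

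Transcription factors of the set were BHLHE40 and POU5F1. BHLHE40 (also called DEC1) is a repressor linked to the circadian clock, and its mRNA was 299, 303 and 298 FPKM in vector and 286, 300 and 293 FPKM in shYB1 libraries. The groups overlapped, since shYB1 replicate 2 was above 2 of the 3 vector libraries. The log2 fold change was −0.034 (95% confidence interval −0.10 to 0.034, limma adjusted p = 0.452). After size-factor scaling it was −0.091 and passed, with a limma adjusted p of 0.0412 where the other alternatives gave up to 0.783. The gene spans 4979116 to 4985323 of chromosome 3.
POU5F1 encodes OCT4, a pluripotency factor, and spans 31164337 to 31180731 of chromosome 6. It was low, at 5.61, 5.41 and 5.76 FPKM with vector and 6.45, 6.37 and 6.62 FPKM with shYB1. The groups were separate, with a log2 fold change of 0.21 (SE 0.054, limma adjusted p = 0.0180) and a rise of 15.8% in mean FPKM. The call was lost after size-factor scaling (adjusted p = 0.0621), without vector replicate 2 (0.0562) and without shYB1 replicate 3 (0.0565), all from limma. This value is uncertain because 37.4% of the 50-base words of POU5F1 transcripts also occur in other genes, POU5F1B, POU5F1P3 and POU5F1P4 among them. POU5F1B was listed at 0.127 ± 0.0814 FPKM in vector and 0.0785 ± 0.0169 FPKM in shYB1 libraries (SD, n = 3 each). TCF19, which overlaps 8.56% of the exon bases of POU5F1 on the opposite strand, was 20.6 ± 0.838 and 23.3 ± 0.926 FPKM (SD, n = 3 each), higher with shYB1 as deposited but not called after size factors. The part of TCF19 in the difference of POU5F1 was not tested.

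NDRG1, a stress-response gene strongly induced by hypoxia, was the most abundant HIF target. It measured 501, 494 and 507 FPKM in vector libraries and 530, 550 and 546 FPKM in shYB1 libraries. The gene spans 133237171 to 133302022 of chromosome 8. All shYB1 values were higher than all vector values, with a log2 fold change of 0.12 (SE 0.030, limma adjusted p = 0.0187). Size-factor scaling reduced it to 0.058 and ended the call (limma adjusted p = 0.147). The adjusted p of NDRG1 was also 0.0581 to 0.0892 from limma with vector replicate 1 or 2 or shYB1 replicate 2 or 3 left out, and 0.0830 with a variance prior without trend.
ANKRD37 encodes an ankyrin-repeat protein and is a known HIF target. It spans 185396021 to 185400628 of chromosome 4. Its mRNA was close to absent, at 0.287, 0.0501 and 0.213 FPKM in vector and 0.365, 0.249 and 0.105 FPKM in shYB1 libraries. Once multiplied by relative depth, these values were 6, 1 and 4 and 7, 5 and 2 times a common step, each within 0.1 of a whole number. If the step is 1 fragment, the value of each library rests on 7 fragments or fewer. The groups overlapped (two-sided exact permutation test, p = 0.6), and no difference was detectable at this depth. Exons of UFSP2, on the opposite strand, cover 35.2% of the exon bases of ANKRD37, and UFSP2 was 4.49 ± 0.620 and 4.94 ± 0.686 FPKM (SD, n = 3 each).

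**Figure D3:**
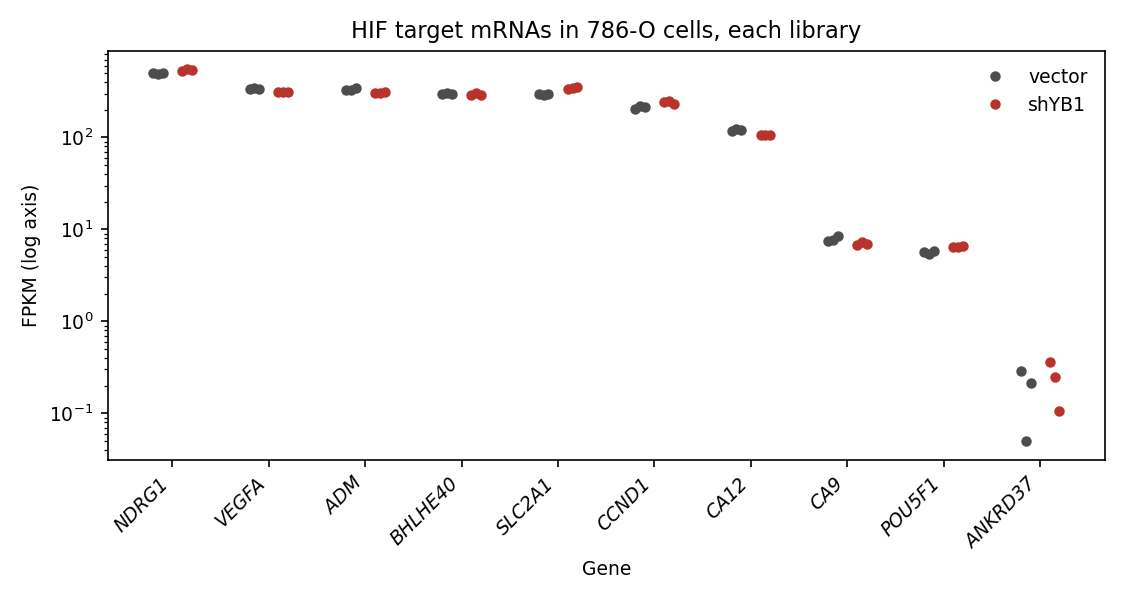
FPKM of the 10 HIF target genes on a log axis, 1 point per library, for 3 vector (grey) and 3 shYB1 (red) libraries, ordered by the vector mean. The genes span from NDRG1 near 500 FPKM to ANKRD37 under 0.4 FPKM. The groups lie close together except in ANKRD37, whose values scatter widely within both groups, from 0.0501 to 0.365 FPKM.

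The levels of the HIF targets ranged from 0.184 ± 0.121 FPKM for ANKRD37 to 500.4 ± 6.68 FPKM for NDRG1 in vector cells (SD, n = 3 each). NDRG1 was 85th of the 10439 genes tested by mean FPKM, followed by VEGFA (122nd), ADM (123rd), SLC2A1 (124th), BHLHE40 (133rd), CCND1 (171st) and CA12 (342nd). CA9 and POU5F1 were near the middle of the tested genes, at ranks 5142 and 5893. In vector cells VEGFA and ADM overlapped in FPKM, as did BHLHE40 and SLC2A1. In shYB1 cells SLC2A1 was above VEGFA, ADM and BHLHE40 in every library, the highest level after NDRG1. Within each library, the ratio of SLC2A1 to VEGFA, which no scaling of the libraries can alter, was 0.894, 0.843 and 0.888 with vector and 1.08, 1.10 and 1.11 with shYB1. CCND1 to ADM likewise went from 0.629, 0.666 and 0.622 with vector to 0.799, 0.804 and 0.750 with shYB1. Both pairs were chosen after their values were seen and are given as a description.

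The direction of the genes with small differences has to be read against the scaling. Size factors (median of ratios) moved the median difference over the genes tested, on the log2 scale, from 0.055 to −0.00057, and the share of higher genes among the calls from 73.0% to 47.9%. After this scaling 1171 of all 10439 genes were higher and 1273 lower. Among the HIF targets 2 were higher (SLC2A1 and CCND1) and 5 were lower (CA9, CA12, VEGFA, ADM and BHLHE40). Rescaling to a common total left 4 higher and gave 4 lower. The calls of SLC2A1, CCND1 and CA12 held in all 14 alternatives, with log2 fold changes of 0.17 to 0.24, 0.13 to 0.21 and −0.23 to −0.16. None of the 9 genes changed direction in any alternative.

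**Figure D4:**
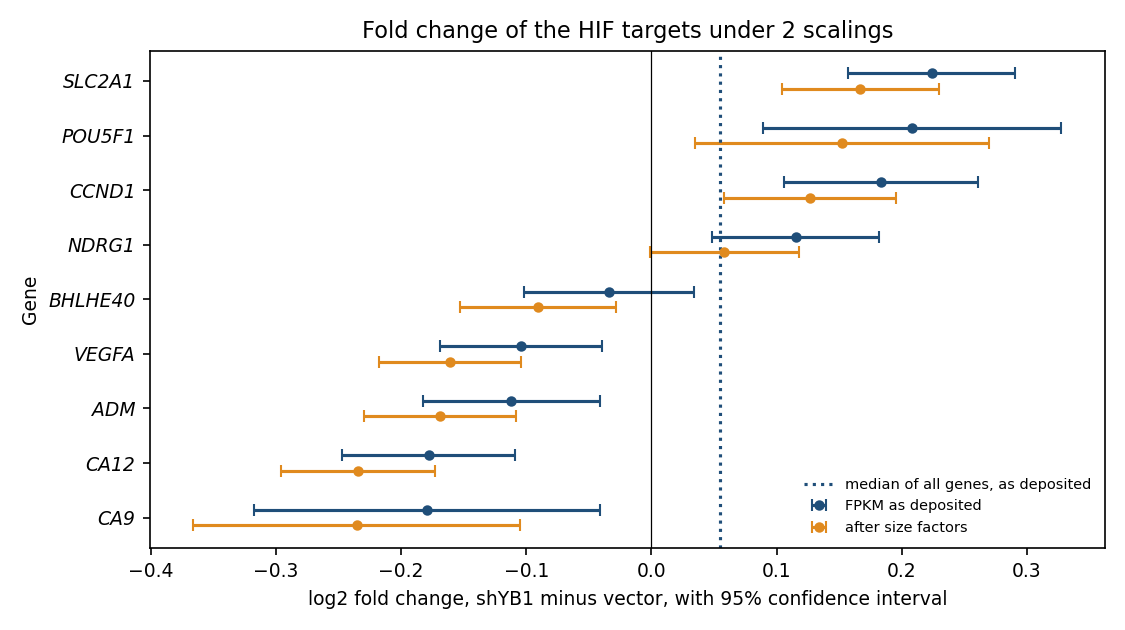
Log2 fold change (shYB1 minus vector) of the 9 tested HIF targets with 95% confidence intervals from limma, for FPKM as deposited (blue) and after size factors (orange), with the median of all genes tested as deposited (dotted line, 0.055). SLC2A1, CCND1 and POU5F1 lie to the right of 0 and CA12, ADM, VEGFA and CA9 to the left under both scalings. The intervals are not adjusted for the number of genes, and POU5F1 after size factors and CA9 as deposited were not called. The interval of NDRG1 reaches 0 after size factors.

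Other hypoxia genes moved in both directions as well, and some differed by more than the HIF targets above. Of 43 hypoxia-induced genes outside sugar metabolism, 38 were tested, and 11 were higher and 11 lower in shYB1 cells, against 18.7% and 6.93% of all genes tested, with a median log2 fold change of −0.044. After size factors 9 were higher and 16 lower, where 1171 and 1273 of all 10439 genes were. ANGPTL4, a secreted inhibitor of lipoprotein lipase, rose from 8.56 ± 1.48 to 17.3 ± 0.555 FPKM (log2 fold change 1.02, limma adjusted p = 0.000218). The water channel gene AQP1 rose from 13.5 ± 0.156 to 24.4 ± 0.185 FPKM (log2 fold change 0.85, limma adjusted p = 4.74e-07). IGFBP1, which binds insulin-like growth factors, rose from 10.2 ± 1.29 to 17.0 ± 0.850 FPKM (log2 fold change 0.73, limma adjusted p = 0.000410). In the other direction, CP, the gene of the copper-carrying ferroxidase ceruloplasmin, fell from 24.5 ± 0.749 to 15.3 ± 0.371 FPKM (log2 fold change −0.67, limma adjusted p = 4.58e-06). LOX, which crosslinks collagen, went from 6.95 ± 0.395 to 4.84 ± 0.114 FPKM, and EFNA1, the ligand ephrin-A1, from 16.7 ± 0.534 to 12.1 ± 0.564 FPKM (log2 fold changes −0.51 and −0.46, limma adjusted p = 0.000270 and 0.000144). These errors are SD over 3 libraries. FLT1, CXCL12 and NRN1 were listed at 0 in all libraries.

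Among 26 hypoxia-induced genes of glucose metabolism and mitophagy, which respond mainly to HIF-1 in many cells, 25 were tested, with 6 higher, 2 lower and 17 not called, where 25.7% of all genes tested were called (18.7% higher and 6.93% lower). Their median log2 fold change was 0.078, near the 0.055 of all genes tested. The glycolytic enzyme gene TPI1 rose from 492 ± 23.2 to 579.7 ± 11.9 FPKM (SD, n = 3 each; log2 fold change 0.24, limma adjusted p = 0.00173). PFKP rose from 52.9 ± 0.683 to 60.5 ± 0.785 FPKM and PFKFB4 from 4.64 ± 0.581 to 5.62 ± 0.186 FPKM (SD, n = 3 each). Both act on fructose 6-phosphate, and their log2 fold changes were 0.19 and 0.28 (limma adjusted p = 0.00184 and 0.0337). PGM1, which feeds glycogen-derived sugar into glycolysis, fell from 41.5 ± 1.26 to 35.0 ± 0.795 FPKM, and PFKL, the liver-type phosphofructokinase, from 36.3 ± 2.30 to 31.8 ± 0.991 FPKM (SD, n = 3 each), with log2 fold changes of −0.24 and −0.19 (limma adjusted p = 0.00133 and 0.0180). The PFKFB4 call was lost after size factors (limma adjusted p = 0.0769) and with any single library other than vector replicate 3 left out (0.0579 to 0.106), with no filter (0.0814) and with a prior without trend (0.0582). The PFKL call was lost without shYB1 replicate 2 (limma adjusted p = 0.0683) and with a prior without trend (0.0564). After size factors 2 genes of this list were higher and 3 lower, where 1171 and 1273 of all 10439 genes were. The KEGG pathway of HIF-1 signaling in the deposited annotation, which includes SLC2A1 and VEGFA, had 74 of 100 genes tested, with 15 higher, 13 lower and a median of 0.025, against the same shares of all genes. After size factors 7 were higher and 17 lower, where 1171 and 1273 of all 10439 genes were.

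**Figure D5:**
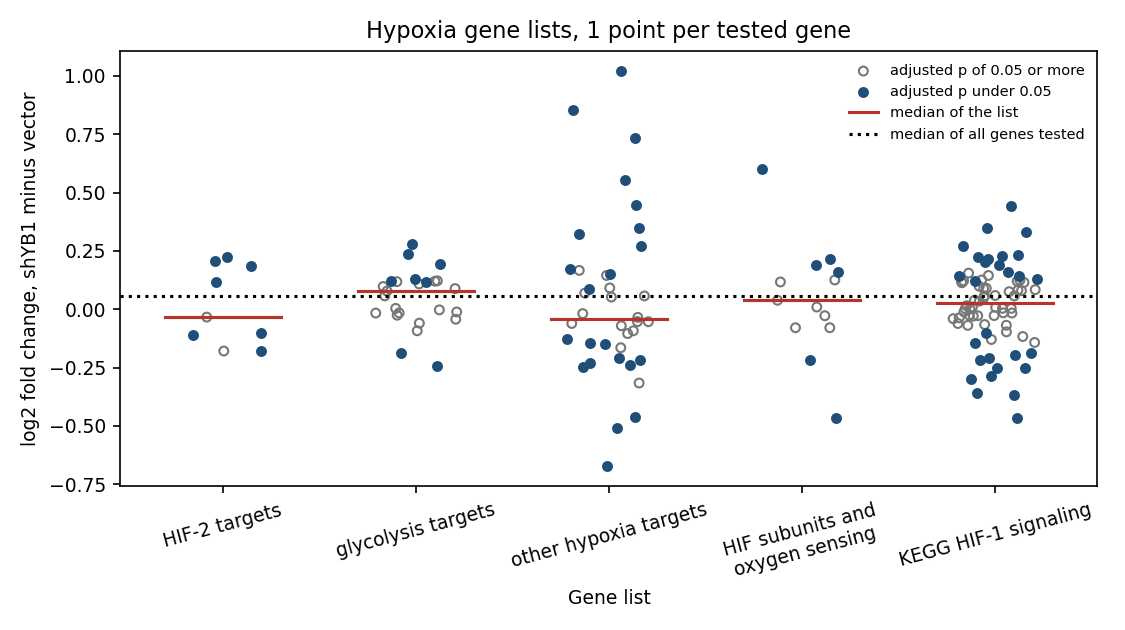
Log2 fold change (shYB1 minus vector) of each tested gene in 5 groups of hypoxia genes, filled where the adjusted p from limma was under 0.05, with the median of each group (red line) and of all genes tested (dotted line). Called genes lie on both sides of 0 in every group, and the widest spread, up to 1.02 in ANGPTL4, is among the other hypoxia targets.

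Of the HIF subunits, HIF1A and ARNT passed the test as lower in shYB1 cells, EPAS1 did not, and HIF3A was listed at 0 throughout. EPAS1, which encodes HIF-2 alpha, was 84.3 ± 1.05 FPKM in vector and 79.8 ± 1.11 FPKM in shYB1 libraries (SD, n = 3 each), with separate groups, a log2 fold change of −0.079 and a limma adjusted p of 0.0798, or −0.14 and 0.00858 after size factors. HIF1A mRNA fell from 65.4 ± 2.35 to 47.3 ± 0.814 FPKM (SD, n = 3 each; log2 fold change −0.47, limma adjusted p = 2.20e-05), and ARNT from 9.89 ± 0.420 to 8.50 ± 0.427 FPKM (log2 fold change −0.22, limma adjusted p = 0.0177). The ARNT call was lost without vector replicate 1 (limma adjusted p = 0.0679) and without shYB1 replicate 3 (0.0579). EPAS1 mRNA was 1.29 ± 0.0619 times that of HIF1A in vector and 1.69 ± 0.0518 times in shYB1 libraries (SD, n = 3 each). VHL mRNA was 12.9 ± 0.539 and 13.0 ± 0.752 FPKM (95% confidence interval of the log2 fold change −0.11 to 0.13). ARNT2 (0.60), CREBBP (0.22) and ELOC (0.19) had the largest positive log2 fold changes among the 14 genes of HIF subunits and oxygen sensing, of which 13 were tested, 4 were higher and 2 lower, against 18.7% and 6.93% of all genes tested. Those of CREBBP and ELOC were not called after size factors (limma adjusted p = 0.0641 and 0.0939). The list then had 1 higher and 4 lower, where 1171 and 1273 of all 10439 genes were. CREBBP also lost the call without vector replicate 1 or 3 or shYB1 replicate 1 or 2 (limma adjusted p of 0.0512 to 0.0680). ELOC lost it without vector replicate 1 or any of the shYB1 libraries (0.0575 to 0.104), with no filter (0.0874) and with a prior without trend (0.0836). The part of these differences in those of the targets was not tested.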

How the data were processed

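RNA of 786-O cells had been made into 3 vector and 3 shYB1 libraries with Illumina protocols. The authors deposited FPKM per gene; their processing notes name Trimmomatic, HISAT2, Cufflinks, HTSeq and DESeq, without roles or versions, and the build GRCh38. For this experiment the methods of the study give a fold change of 2 with a p under 0.05 and no test of its own; they head it as a microarray, but the deposited values are from sequencing. All 6 value columns were used as deposited. FPKM hold no counts, so depth is known only as a relative value.

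The 10439 genes averaging 1 FPKM or more were compared on log2(FPKM + 0.1), which understates changes of low genes, with limma 3.58.1 in R 4.3.3 (trend, robust prior), two-sided, with Benjamini-Hochberg adjustment. Its code was tested on simulated data. Exact permutation tests of 3 libraries against 3 cannot give a p under 0.1. Positions, exon overlaps and shared 50-base words came from GENCODE 29 (GRCh38), promoters from RefSeq (GRCh38.p14). The 10 genes and the lists were chosen with earlier results of these data known. All 10 were named, and from each hypoxia list the 3 called genes with the largest positive and negative log2 fold changes, with EPAS1, HIF1A, ARNT and VHL added. The KEGG list was added after the files were seen. Alternatives were other pseudocounts (1 and 0.01), filters (none and 5 FPKM), scalings, a prior without trend, a replicate block and each library left out. Values of some marker genes are not reported here.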

Additional observations from a re-analysis of the deposited data

How the results depend on the processing

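For the 9 tested HIF targets, 103 of 126 combinations of gene and alternative kept direction and side of the threshold, 19 lost the call, 4 gained it and 0 changed direction. The number of called HIF targets, 7 with 4 higher and 3 lower, went to 4 with 3 higher and 1 lower under a variance prior without trend, and the split went to 2 higher and 5 lower after size factors. With 1 library left out, 3 to 7 were called, 2 to 4 higher and 1 to 3 lower. There were 3 without shYB1 replicate 3 and 4 without shYB1 replicate 2 or vector replicate 2, with 2 higher without vector replicate 2 or shYB1 replicate 3 and 1 lower without any of the shYB1 libraries. The glucose metabolism list, with 8 called, went to 5 with no filter, 5 after size factors, 3 with a prior without trend and 3 to 8 with 1 library left out, and at most 5 without vector replicate 1 or 2 or shYB1 replicate 1 or 2. The oxygen sensing list (6) had 3 to 5, fewest without vector replicate 1 or shYB1 replicate 1 or 3, and the KEGG list (28) had 18 to 28, fewest without shYB1 replicate 2. Over all genes, the 2679 called went to 2276 with a prior without trend and 2444 after size factors. They went to 2198 with no filter and to 1861 to 2509 with 1 library left out. The cause of these moves was not tested. VHL, not called in any fit, changed sign, to −0.047 after size factors and, over the fits with 1 library left out, from −0.033 to 0.050, with −0.0086 without vector replicate 2 and −0.0068 without vector replicate 3.

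With the replicate number as a block, 7 HIF targets were called, 4 higher and 3 lower, and 2834 genes in all against 2679 without the replicate block, and no call of a HIF target changed. Deviations from the group means correlated at −0.169 to −0.00824 for the 3 pairs with the same number. For the 6 other pairs they correlated at −0.0507 to 0.113. With 3 libraries per group, these values cannot decide whether libraries of the same number shared a culture or day.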
